A study of Mus musculus with 7 samples.

Results

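The cytosolic ribosome carries about the same set of proteins in every cell, and the genes described here encode those proteins. They were chosen by symbol, with no use of measured values: every gene whose symbol starts with Rpl or Rps followed by a digit, with Rplp0, Rplp1, Rplp2 and Rpsa, and without pseudogenes, the Rps6k kinases and 1 further gene. The rule found 85 of the 23465 gene symbols in the tables. By name, 48 belong to the large subunit, 32 to the small subunit and 3 to the stalk (Rplp0, Rplp1 and Rplp2). The remaining 2, Rps19bp1 and Rpl7l1, match the rule by name and are a regulator that binds Rps19 and a Rpl7-like protein of ribosome assembly. All values come from pancreatic islets of 10-week-old female C57BL/6 mice with no genetic change or treatment. Dissociated islets were run as single cells on a 5′ droplet kit, with dNTP added at 2 steps and longer extension times, insulin cDNA was cut away with Cas9, and full-length cDNA was read on a Nanopore sequencer. There were 2 such libraries, replicate 1 and replicate 2. Nothing in the labels says that they came from different animals, so no p-value is read as covering animals. With library as a term of the model, p-values measure only how far differences between cell types varied between these 2 libraries. The other 5 samples of the series are not analysed here.

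A ribosome is built from ribosomal RNA and one copy of nearly every ribosomal protein, so cells make the proteins of the 2 subunits in balanced amounts. Their mRNAs are among the most abundant of a cell, are short, and usually start with a C followed by a run of C and T, the 5′ terminal oligopyrimidine (TOP) motif, through which the kinase mTOR and the RNA-binding protein LARP1 control their translation. Islet endocrine cells make large amounts of a single secreted hormone, so the share of mRNA left for the translation machinery depends on how much hormone mRNA a cell holds. A few ribosomal proteins have a further gene, a paralog, that can be expressed in place of the first.

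The starts of the genes are shown because the TOP motif is the sequence feature that these mRNAs share. Each line gives the 12 bases before the RefSeq transcript start and the 18 bases that begin with it (GRCm38.p6), with a run of a C and at least 5 further C or T that starts within 10 bases of that base in capitals.
Rpl27a, chr7:109519183-109519212 (+): ttcgtgagCTCCTCCCTTTTCCCTTTCTgc
Rpl22l1, chr3:28805496-28805525 (+): cggcgcaagcccgttCTCTTCCCacggctg
Rps27, chr3:90213631-90213660 (-): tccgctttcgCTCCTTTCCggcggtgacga
Rps27l, chr9:66946074-66946103 (+): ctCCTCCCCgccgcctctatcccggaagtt
Rpl13, chr8:123102338-123102367 (+): cctttcgcctgattttgattggcgtttgag
Of the 65 members with a RefSeq entry, 34 (52.3%) held such a run on the transcribed strand, against 21.9% of the 27025 genes with an entry. Rpl13 held none in this window. With the run allowed to start within 40 bases, the shares were 89.2% and 56.1%. The mitochondrial ribosomal proteins, which serve a separate ribosome inside mitochondria, held the run in 16 of 69 genes (23.2%). A match is a description of these letters only, and it depends on which start site RefSeq lists. The run shown for Rps27l lies wholly before the listed start, and a second RefSeq start of Rps27l held none. The lines shown hold runs more often than the members as a whole. Rpl22, Rpl36a, Rpl36al, Rps3a1, Rplp0 and Rpsa, which are not shown, held none within 10 bases.

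Rpl22l1 is the member with a transcript called in the most comparisons of cell types, so the parts by which its transcripts differ are shown as well. Rpl22l1 lies on chromosome 3 from base 28805436 to 28807424 on the plus strand (GRCm38, the build that UCSC calls mm10). The protein-coding transcripts Rpl22l1-206 and Rpl22l1-201 of GENCODE M21 differ at the start of exon 2 by 3 coding bases, in capitals.
Rpl22l1-206, coding start: atggcgccgaaagacaagaagcctaagaag
Rpl22l1-201, coding start: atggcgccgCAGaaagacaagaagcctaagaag
The transcript Rpl22l1-204 starts exon 3 upstream of the others, at base 28806670 in place of 28806737. The 67 bases this adds are in capitals, and the reading frame then ends at the TAA at the end of the line, within exon 3, so that the annotation classes the transcript as a target of nonsense-mediated decay, the pathway that removes mRNAs with an early stop codon.
Rpl22l1-204, exon 3 to the stop codon, chr3:28806670-28806762 (+): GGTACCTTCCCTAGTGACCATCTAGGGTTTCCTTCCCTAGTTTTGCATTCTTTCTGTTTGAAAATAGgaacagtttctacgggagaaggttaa

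The tables count unique molecular identifiers (UMIs), each standing for a captured mRNA molecule. In the cells kept by the authors there were 11012364 gene UMIs in 4814 cells of replicate 1 (median 2110 per cell) and 12092393 in 1093 cells of replicate 2 (median 9949 per cell). Of the cell types named by the authors' clusters, 6 reached 20 cells in both libraries (alpha, beta, delta, PP, endothelial and stellate) and macrophages with 62 and 7 cells. In every library the alpha cells led in glucagon, the beta cells in Ins2, the delta cells in somatostatin and the PP cells in Ppy, and the stellate cells in Rgs5. The endothelial class also held the duct markers Krt19 (149 and 861 CPM in replicates 1 and 2) and Sox9 (62.6 and 277). CPM are counts scaled to a common total of UMIs. These markers came from 1 of its clusters, with 12 of the 141 cells of the class in replicate 1 and 16 of 26 in replicate 2. In replicate 2 the median was 18630 UMIs per cell in that cluster and 5406 in the other. Most UMIs of the endothelial class in replicate 2 therefore came from the duct-marker cluster. The libraries shared 5 barcodes among kept cells. The clusters were made by the authors from these same genes, so differences between types are partly a result of how the types were drawn.

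How many UMIs a ribosomal protein gene received depended on the kind of table. The authors deposited gene tables and transcript tables of the same cells, and the UMIs of a gene's transcripts can be added up and set beside its gene UMIs. Over all members the gene tables gave a total of 1116161 UMIs, 4.83% of all, and the transcript tables a total of 1802434, 8.87% of all. Of the 82 members with at least 100 gene UMIs, 28 (34.1%) had more than 5 times as many transcript UMIs as gene UMIs, whereas this held for 26 of 11779 other genes (0.221%). Rpl13, a large-subunit protein, had 1783 gene UMIs and 72474 transcript UMIs, a ratio of 40.6. The ratio was high in both libraries, 34.0 in replicate 1 and 46.6 in replicate 2.

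Rpl5, which helps bring a small ribosomal RNA into the large subunit, had 349 gene and 12892 transcript UMIs. Rpl27a, of the large subunit, had 3785 and 22526, and Rpl22l1 7121 and 11187. The opposite was seen in 3 genes, Rps15a (2046 gene and 302 transcript UMIs), Rpl21 (1261 and 262) and Rps25 (741 and 158). In 40 members the totals were within 1.5 times of each other, among them Rps2 (61529 and 62109), Rplp0 (55860 and 56372), Rps4x (57266 and 58224) and Rps3a1 (70450 and 75075). A level of a gene such as Rpl13 is therefore set by the table it is read from, whereas the level of Rps2 or Rplp0 is not.

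**Figure D1:**
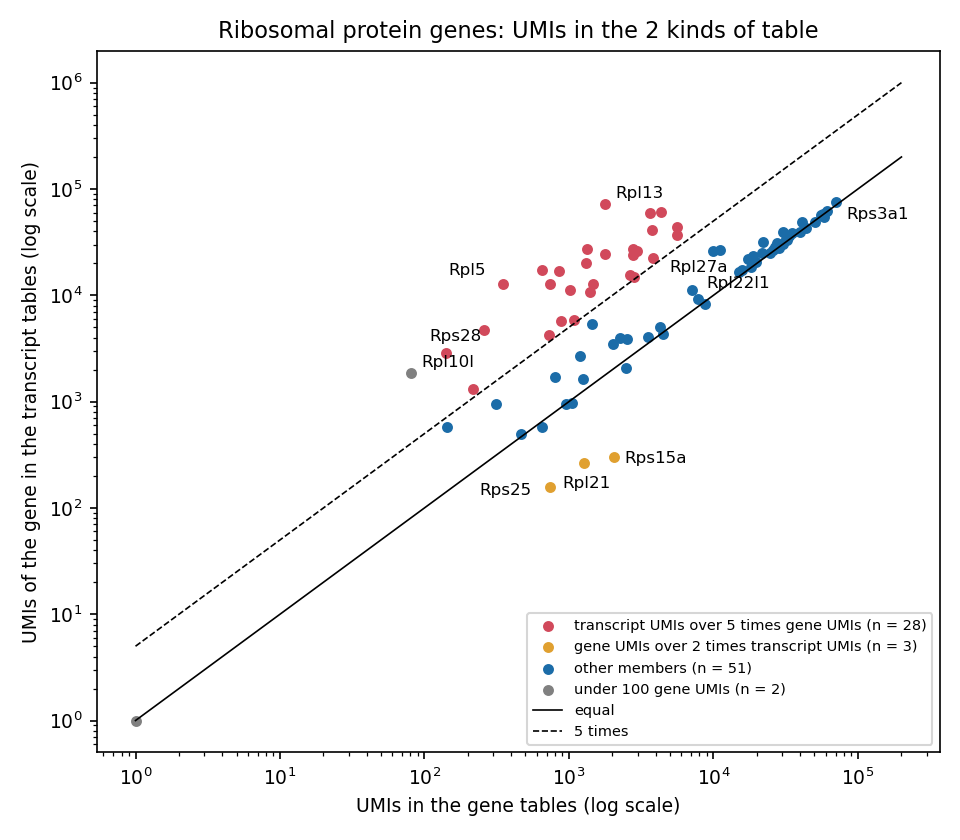
Each point is a ribosomal protein gene with at least 1 transcript UMI; the horizontal axis gives its UMIs in the gene tables and the vertical axis its UMIs summed over its transcripts, both on log scales and over all kept cells of both libraries. Along the solid line the tables are equal; of the 82 genes with at least 100 gene UMIs, 28 lie above the dashed line of 5 times, Rpl13 and Rpl5 among them, and Rps15a, Rpl21 and Rps25 lie far below the solid line.

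Ribosomal protein genes have many processed pseudogenes, copies of the mRNA inserted in the genome, which can take reads from the parent gene. With a copy defined as an annotated pseudogene transcript that matches at least 80% of the coding sequence at 90% identity or more, 78 of the 85 members had at least 1 copy and the highest number was 76. The median ratio of transcript to gene UMIs was 0.996 in the 5 members without a copy, 1.09 in the 6 with 1 or 2, 1.57 in the 37 with 3 to 9 and 2.17 in the 34 with 10 or more. The relation over single genes was weak (Spearman's rho = 0.145 over 82 genes that share libraries and counting). Rplp2, a stalk protein, had no copy and a ratio of 7.68, and Rps2 had 50 copies and a ratio of 1.01. The pseudogene Rpl10-ps3 itself was listed with 31282 gene and 71508 transcript UMIs, more than Rpl10 (2638 and 15502). The cause of the difference between the tables was not tested.

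The listed levels of Rps27 and Rpl10l need care as well. Rps27, of the small subunit, had 468 gene UMIs, and 84.8% of its 495 transcript UMIs were on transcripts annotated as not protein coding, led by the retained-intron transcript Rps27-208 (37.8%). Rpl10l, the intronless copy of Rpl10 known from testis, had 81 gene UMIs and 1844 transcript UMIs, and its coding sequence is 84.7% identical to that of Rpl10. The muscle paralog Rpl3l had 1 gene UMI and Rpl39l, the copy of Rpl39, 1. Rpl3l, Rpl39l and Rpl10l did not pass the filter on low values in the gene tables, which left 82 members tested, and 83 in the sums of transcript UMIs, where Rpl10l passed.

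The 5 members with the highest levels in the gene tables were Rps3a1, Rps2, Rps4x, Rpsa and Rplp0, with means over the 12 sums of library and cell type of 3167, 2784, 2763, 2663 and 2556 CPM. Rps3a1, Rps2, Rps4x and Rpsa belong to the small subunit and Rplp0 anchors the stalk. The lowest were Rps28 (8.46 CPM), Rps29 (5.84), Rpl10l (2.86), Rpl3l and Rpl39l. Short coding sequences had fewer UMIs: the 11 members under 300 coding bases had a median of 4075 transcript UMIs and the other 71 a median of 23662. Spearman's rho between coding length and transcript UMIs was 0.574, and between coding length and gene UMIs 0.447, over 82 genes. These are levels per molecule captured and are not divided by length.

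The short members also differed most between the libraries. The difference between replicate 2 and replicate 1, as log2 of CPM plus 1 and averaged over the 6 types, fell with coding length (Spearman's rho = -0.728 over 82 members, a description over genes that share both libraries). Members whose leading transcript was under 600 bases were higher in replicate 2 by a median of 1.15 (26 genes), those from 600 to under 1200 bases by 0.38 (41 genes), and the 15 longer ones differed by -0.03. In other genes the medians for the same lengths were 0.30, 0.10 and -0.10, with rho = -0.192 over 12957 genes. Rpl22l1 was higher in replicate 2 in each of the 6 types, by 1.54 to 2.41, and Rpl36a by 1.38 to 2.20. Rpl5, with 2045 bases in its leading transcript, was lower in replicate 2 in each type, by 0.62 to 1.02 in size. This relation was looked for after the values had been seen, and its cause was not tested. Because the libraries differ so much, every test below compares cell types within a library, with library as a term of the model.

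Ribosomal protein genes took a larger share of UMIs in alpha cells than in beta cells in each library. In the gene tables the share was 4.58% and 6.76% in alpha cells of replicates 1 and 2 and 4.17% and 4.92% in beta cells. Delta cells had 3.54% and 4.95% and PP cells 4.29% and 5.68%. Stellate cells had 5.34% and 5.01%, the endothelial class 4.55% and 8.39%, and macrophages 6.72% and 8.78%. The alpha mean was 5.67% ± 1.54 (SD, n = 2) and the beta mean 4.54% ± 0.529, and PP cells (4.99% ± 0.981) lay between them and delta cells (4.24% ± 0.996) below. With 2 libraries the ranges of alpha, beta, delta and PP cells overlapped, since replicate 2 was above replicate 1 in every type but stellate cells.

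The share of hormone mRNA differed between types and libraries as well. In each endocrine type it was lower in replicate 2, and the ribosomal protein share was higher there. Whether these differences between the libraries are linked was not tested. Hormone genes took 33.4% and 21.2% of UMIs in alpha cells and 13.3% and 11.6% in beta cells, where insulin cDNA had been cut away. With hormone genes left out of the total, the ribosomal protein share was 6.88% and 8.58% in alpha cells, 4.81% and 5.56% in beta cells, 4.44% and 6.12% in delta cells and 6.37% and 7.67% in PP cells. The alpha and PP cells were then above the beta and delta cells in each library. In the transcript tables, which count more of these UMIs, the mean shares were 10.0% in alpha cells and 8.57% in beta cells, with alpha cells again above beta cells in each library.

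**Figure D2:**
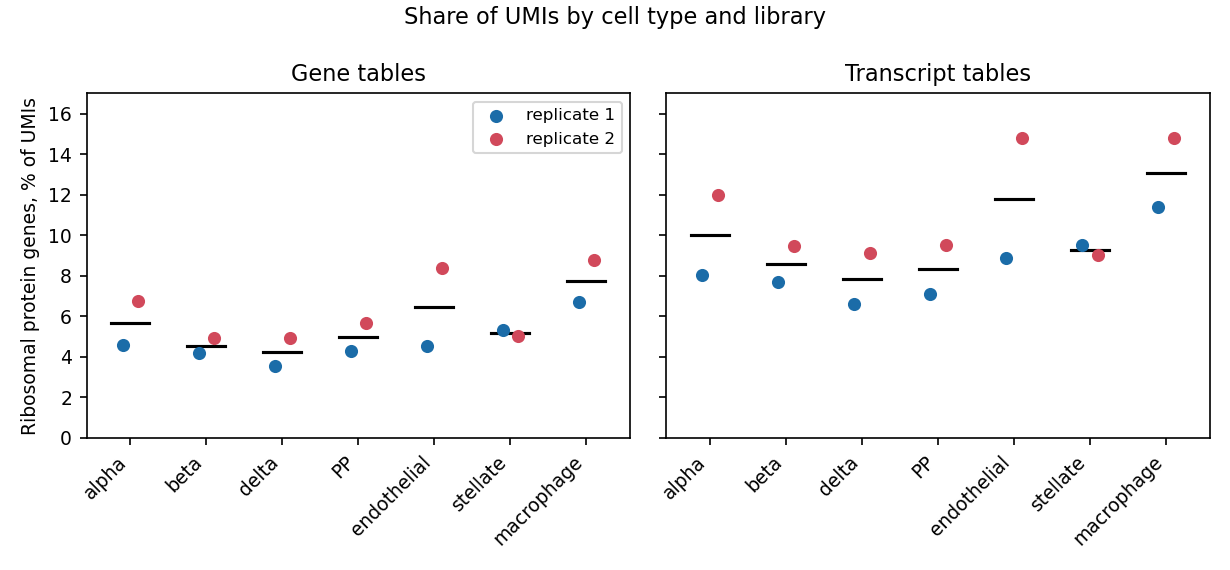
The share of all UMIs that fell on the 85 ribosomal protein genes, in percent, by cell type; points are the libraries and bars their mean, from the gene tables on the left and the transcript tables on the right. Macrophages had the highest mean in both panels, and replicate 2 was above replicate 1 in each type except stellate cells.

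The share was not uniform within a type. A delta cluster of 295 and 27 cells had the lowest share of any cluster, 1.56% and 2.31%, with a median of 929 and 6532 UMIs per cell and 1.66% and 3.59% of UMIs on mitochondrial genes. The other delta cluster of over 100 cells in each library had 3.71% and 4.67%. Among beta cells the largest cluster had 4.76% and 5.43% and the cluster of 468 and 90 cells 3.32% and 3.79%. In the endothelial class the duct-marker cluster had 7.41% and 8.90% and the other cluster 3.92% and 6.08%. Cells with more UMIs had higher shares in each endocrine type, with rho from 0.226 to 0.464 between share and UMIs over the cells of a type and library. Barcodes that the authors did not keep had 3.26% and 1.11%, against 4.17% and 5.44% in kept cells. In sums over cells, fewer UMIs of these genes and more UMIs of other genes cannot be told apart.

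Ribosomal protein genes as a group were higher in alpha cells, which secrete glucagon, than in beta cells, which secrete insulin. Of the 82 members tested, 38 rose and 0 fell in alpha cells at an adjusted p under 0.05 (edgeR's quasi-likelihood test, Benjamini-Hochberg over all 13265 genes), where 9.13% of all genes tested rose and 9.91% fell. The median log2 fold change was 0.74, against 0.02 over all genes tested. In 73 members the fold was above 0 in each library, as in 34.0% of all genes. Both subunits took part, with 20 of 45 large-subunit, 16 of 32 small-subunit and 2 of 3 stalk genes called and medians of 0.64, 0.80 and 0.76. Spearman's rho between these folds and coding length was 0.0541 over 82 genes. The levels given with each fold are CPM scaled by TMM, a factor that equalises most genes between sums; without it the median of all genes was -0.39 and that of the members 0.32, a distance of 0.71 against 0.72 with it, and 9 members were called higher and 1, Rpl7l1, lower.

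Rpl27a had 277 and 290 scaled CPM in alpha cells of replicates 1 and 2 and 140 and 112 in beta cells. Each alpha value was above both beta values, and the log2 fold change was 1.17 ± 0.23 (SE, adjusted p = 3.04e-04, edgeR). Rpl13 had 127 and 127 in alpha cells and 65.6 and 55.2 in beta cells, a log2 fold change of 1.06 ± 0.23 (adjusted p = 8.25e-04). In the transcript tables, where Rpl13 had 5268 and 7184 in alpha cells and 2560.2 and 3584 in beta cells, its fold was 1.02 ± 0.27. The change in Rpl13 was thus alike in both tables although its level was not. Rpl13a, a large-subunit protein that also represses translation of inflammatory mRNAs, had 2119 and 3287 in alpha cells and 1044 and 1264 in beta cells (log2 fold change 1.20 ± 0.28, adjusted p = 0.00206), the largest called rise. Rpl14 had 1858 and 2407 against 915 and 994, and Rps15 345 and 815 against 149 and 411. In Rps15 the alpha value of replicate 1 was below the beta value of replicate 2, and the rise held within each library, by 1.21 and 0.99 on the log2 scale. Rpl5 (log2 fold change 1.14) and Rpl17 (1.10) rested on fewer UMIs, with 8.74 to 52.4 scaled CPM.

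Not every member was higher in alpha cells. Rpl7l1 had a log2 fold change of -0.31 ± 0.22 (adjusted p = 0.398), Rpl31 of -0.20 ± 0.24 (0.649) and Rpl36al of -0.12 ± 0.25 (0.824), none of which was called. Rps28 had the highest fold of all members, 1.24 ± 0.52, on 3.07 to 15.7 scaled CPM, and was not called (adjusted p = 0.0988). Its 2840 transcript UMIs, against 142 gene UMIs, gave 0.32 ± 0.22. The reverse was seen in Rpl23a, with 0.64 ± 0.36 in the gene tables and a called rise of 1.28 ± 0.22 in the transcript tables (adjusted p = 5.03e-05). Transcript UMIs called 35 of 83 members higher in alpha cells and 0 lower, with a median of 0.66, where 8.13% of all genes tested rose and 9.22% fell. Without TMM these sums gave 2 members higher and 3 lower, on a median of 0.16 against -0.46 over all genes. Without library as a term they gave 1 higher and 0 lower, on a median of 0.67 against 0.00. The share of all genes called in these settings is not given here, so the counts are not read alone. Of the 82 members tested in both tables, 30 were called higher in both. The 40 members whose totals were alike in both tables had medians of 0.68 and 0.67, and the 28 with more than 5 times as many transcript UMIs had 0.76 and 0.66. In the gene tables without library as a term 3 members were called, on a median of 0.75 against 0.01 over all genes.

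**Figure D3:**
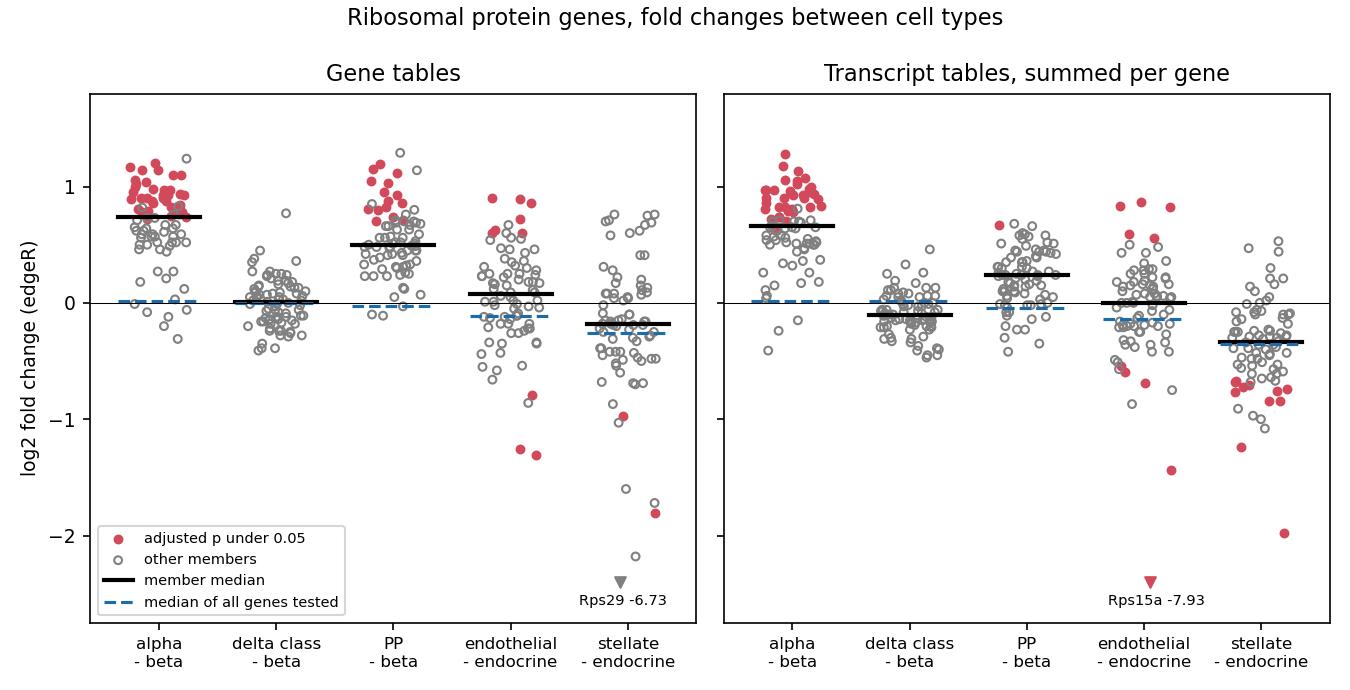
Log2 fold changes of each ribosomal protein gene in 5 comparisons of cell types, from the gene tables on the left and from transcript UMIs summed per gene on the right; filled points have an adjusted p under 0.05, black bars are member medians and dashed bars the median of all genes tested. The members lie above the other genes in alpha minus beta (medians 0.74 and 0.66), around 0 in delta minus beta, and 2 genes listed at 0 in a group lie beyond the axis and are drawn as triangles with their fitted values, which are no bounds.

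Delta cells, which secrete somatostatin, were grouped by the authors from several clusters, and the class also held glucagon (18811 and 21335 CPM) and Ppy (18976 and 25286). In the class as a whole, no member was called against beta cells. None of the 82 members was called in either direction by edgeR or by DESeq2, where 13.8% of all genes tested were called, and 0 had an unadjusted p under 0.05. Restricted to clusters in which the type's own markers led, 1 member, Rps27, was called higher. The median log2 fold change was 0.01 and single members lay between -0.41 and 0.77. Rpl27a had 137 and 148 scaled CPM in delta cells, a log2 fold change of 0.18 ± 0.23 from beta cells (adjusted p = 0.728), and Rpl13 54.1 and 73.8, a fold of 0.07 ± 0.22 (0.910). In the transcript tables the median was -0.10, with 0 members called, where 13.1% of all genes were, and 1 with an unadjusted p under 0.05. This comparison and those of alpha and PP cells use the same beta cells.

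PP cells, which secrete pancreatic polypeptide, had higher values of most members than beta cells, and the call depended on the table. In the gene tables, 15 of 82 members rose and 0 fell, where 8.89% of all genes tested rose and 8.43% fell. The median was 0.50, against -0.03 over all genes (without TMM scaling 0.10 against -0.42), and 75 members were above 0 in each library, as in 33.0% of all genes. Called members included 11 of 45 large-subunit and 4 of 32 small-subunit genes and 0 of 3 stalk genes. Transcript UMIs gave a median of 0.24 and called 1 of 83 members, where 8.27% of all genes rose, and no member was called in both tables.

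Rps26, a small-subunit protein at the mRNA exit channel, had 18.9 and 94.9 scaled CPM in PP cells and 13.2 and 30.9 in beta cells, a log2 fold change of 1.19 ± 0.30 (adjusted p = 0.00531). The PP value of replicate 1 was below the beta value of replicate 2, and the fold was 0.49 in replicate 1 and 1.59 in replicate 2. Transcript UMIs of Rps26 gave 0.26 ± 0.23. Rpl27a had 246 and 303 in PP cells, above the 140 and 112 of beta cells (1.12 ± 0.24, adjusted p = 0.00113), but transcript UMIs gave 0.35 ± 0.24. Rpl13 went from 1.03 ± 0.25 (adjusted p = 0.00331) to 0.51 ± 0.27, and Rpl24 from 1.15 ± 0.28 to 0.44 ± 0.24. All of these were above 0 in both tables, and the transcript tables gave the lower value each time. Rps12 (1.05 and 0.45) and Rpl3 (0.95 and 0.31) followed them, and Rpl3 had a fold of 0.35 in replicate 1 and 1.65 in replicate 2. The 41 PP cells of replicate 2 held 611417 UMIs.

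The endothelial class, set against the mean of the 4 endocrine types, gave 7 members that rose and 3 that fell of 82, where 32.9% of all genes tested were called and 17.9% rose. The median was 0.08, against -0.11 over all genes. Rpl22, an RNA-binding protein of the large subunit, had 321 and 1135 scaled CPM in the endothelial class and 230 and 540 in the endocrine mean (0.86 ± 0.20, adjusted p = 0.00130). Each endothelial value was above the endocrine mean of its own library. Rpl10a, of the large subunit, was at 0.72 ± 0.27, and Rps16 and Rps19, of the small subunit, were at 0.60 ± 0.20 and 0.60 ± 0.21.

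Most of these rises were not called without the duct-marker cluster, which left 129 and 10 cells in replicates 1 and 2. Without it 1 member rose and 21 fell, and the median was -0.44, against -0.49 over all genes. Of the 82 members 17 were above 0, and of all genes tested 36.5%. The share of all genes called in that setting is not given here, and the 2 medians lay close together. The falls in that setting are therefore not read as particular to these genes. Rpl22 was then at 0.09 (adjusted p = 0.805) and Rps16 at 0.15 (adjusted p = 0.740), and Rpl10a turned from 0.72 to -0.62 (adjusted p = 0.279). Rpl36al fell with and without it. It had 104 and 486 in the endothelial class against 370 and 1010.0 in the endocrine mean, a log2 fold change of -1.31 ± 0.24 (adjusted p = 8.45e-05), and -2.47 without that cluster. Rpl38 (-1.26 ± 0.36) and Rplp2 (-0.79 ± 0.31) were called in the gene tables but not in the transcript tables (-0.57 and -0.19), and Rplp2 was not called without the duct-marker cluster either (-0.68, adjusted p = 0.265). Transcript UMIs called 5 of 83 members higher and 5 lower, where 16.5% of all genes rose and 14.1% fell. They listed Rps15a at 0 in the endothelial class of both libraries, where the gene tables had 60.1 and 132 scaled CPM.

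In stellate cells, the contractile and matrix-forming cells around vessels and ducts, 0 members rose and 2 fell of 82 against the endocrine mean, where 10.2% of all genes tested rose and 6.47% fell. The median was -0.18, against -0.26 over all genes, and it was 0.11 without TMM scaling. Rpl36al had 121 and 256 scaled CPM in stellate cells, below every endocrine value of its own library, and its log2 fold change was -1.81 ± 0.29 (adjusted p = 2.43e-05). Rpl37a, a small zinc-binding protein of the large subunit, had 67.4 and 91.5 against 104 and 229 (-0.97 ± 0.33, adjusted p = 0.0448). Transcript UMIs gave -1.98 for Rpl36al and -1.24 for Rpl37a, both called, and called 11 of 83 members lower, where 6.86% of all genes fell. The member median was -0.34 there, against -0.35 over all genes, and without TMM scaling 0.12 against 0.10. The members as a group were thus not lower than other genes. Rps29, a small-subunit zinc-finger protein, was listed at 0 in the stellate gene sums of both libraries and at 35.8 and 19.0 scaled CPM in the transcript sums. Stellate sums held 130176 and 99232 UMIs. The endothelial and stellate comparisons share the endocrine cells.

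Pairs of paralogs had different levels and different calls across cell types. Rpl36a, on the X chromosome, and Rpl36al, on chromosome 12, encode near-identical proteins of the large subunit and have coding sequences of 318 bases that are 87.7% identical. Rpl36a had 74.0 and 265 scaled CPM in alpha cells and 41.7 and 119 in beta cells (log2 fold change 1.00 ± 0.22, adjusted p = 9.87e-04), and it rose in PP cells too (0.93 ± 0.23, adjusted p = 0.00503). Rpl36al had 350 and 1015 in alpha cells and 409 and 1015 in beta cells. In the gene tables Rpl36al was the more abundant of the pair in every type and library. By transcript UMIs Rpl36a was the higher in the endothelial class of replicate 1, with 133 against 124 scaled CPM. It was also higher in macrophages of replicate 2, with 565 against 482 CPM without TMM scaling. Rpl36al fell in endothelial and stellate cells, where Rpl36a had log2 fold changes of 0.09 and -0.45 that were not called. The difference between the folds of the pair was not tested.

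Rpl22 and its paralog Rpl22l1, known in other tissues for opposing effects on splicing and blood development, share 66.9% of aligned coding bases. Rpl22 had 301 and 715 in alpha cells and 209 and 443 in beta cells (0.61 ± 0.25, adjusted p = 0.0952), and Rpl22l1 186 and 658 against 130 and 383 (0.64 ± 0.24, adjusted p = 0.0623). Neither was called in alpha cells, and Rpl22l1 passed the threshold with DESeq2 (0.65, adjusted p = 0.0224). In PP cells Rpl22l1 had 190 and 737 (0.74 ± 0.25, adjusted p = 0.0366), and 0.35 ± 0.24 by transcript UMIs. In the endothelial class Rpl22 rose by 0.86 (0.09 and not called without the duct-marker cluster), whereas Rpl22l1 was at -0.04 ± 0.22.

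Rps27 and Rps27l, a p53 target that can replace Rps27, share 76.2% of coding bases. Rps27l had the higher gene UMIs (4484 against 468). A further gene of the set, Rps27rt, had 2831 gene and 14868 transcript UMIs, and whether it holds reads of Rps27 was not tested, so the order of Rps27 and Rps27l is uncertain. Rps27l had 116 and 356 scaled CPM in alpha cells and 117 and 271 in beta cells (0.21 ± 0.22), and neither gene was called in alpha cells. Rpl7 had 1682 and 1618 in alpha cells against 973 and 746 in beta cells (0.95 ± 0.28, adjusted p = 0.0148). Rpl7l1 had 37.7 and 41.1 against 49.9 and 47.8, and its coding sequence is 52.7% identical to that of Rpl7. Of the other pairs, Rpl3 and Rpl39 had copies with 1 gene UMI each, and Rpl10l is described above.

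**Figure D4:**
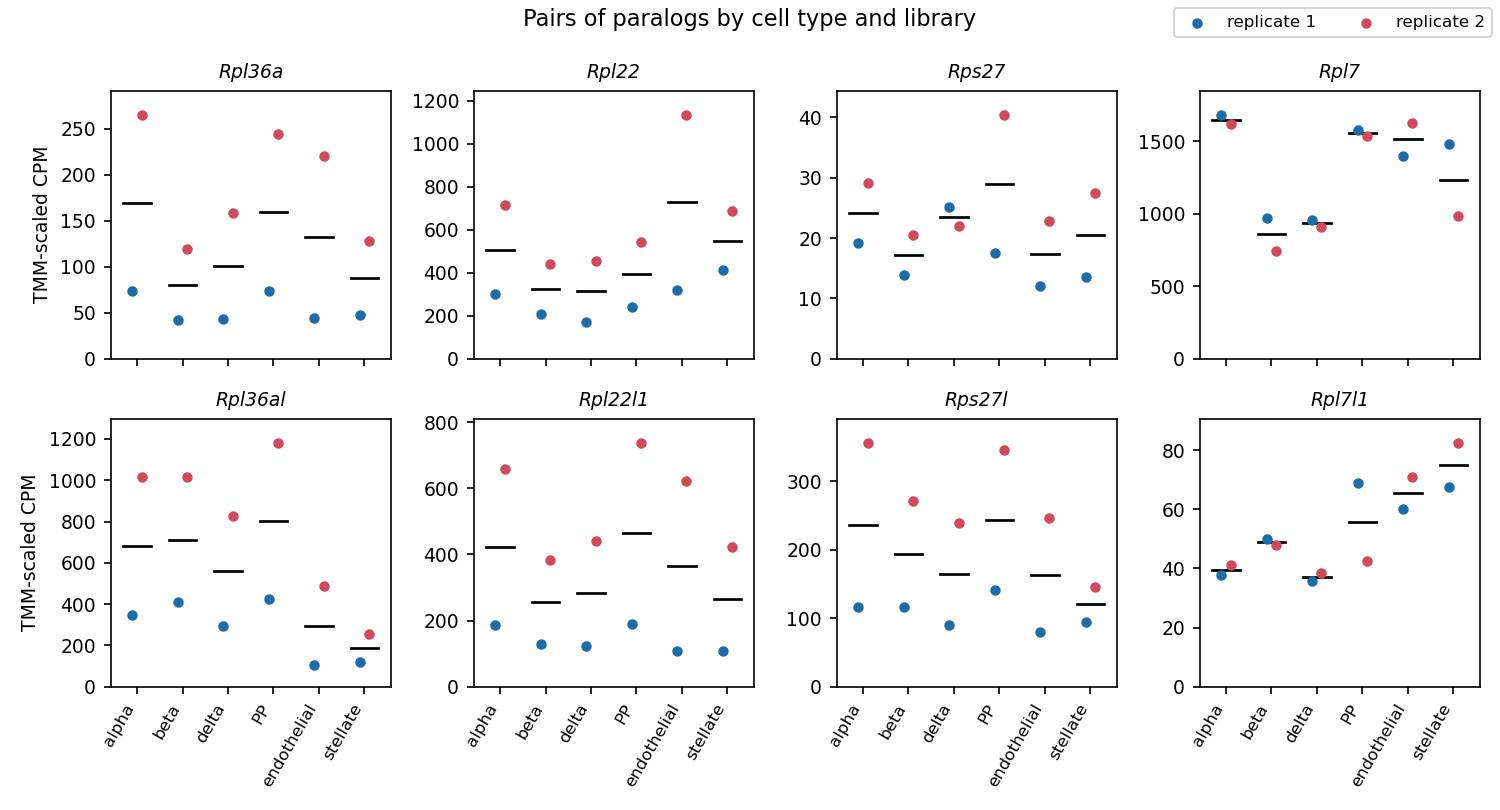
TMM-scaled CPM of 4 pairs of paralogs, the first gene of each pair above and the second below, in the 6 cell types tested; points are the libraries and bars their mean, and each panel has its own axis from 0. Rpl36a is highest in alpha and PP cells, whereas Rpl36al is lowest in endothelial and stellate cells, and Rpl7 and Rpl7l1 differ in their order.

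Most ribosomal protein genes were read as a single transcript. Of the 83 members with at least 100 transcript UMIs, 68 had more than 90% on their leading transcript, and the median was 98.3%. Rpl13-201 held 99.9% of the UMIs of Rpl13 and Rpl27a-203 98.9% of those of Rpl27a. Protein-coding transcripts held 99.1% of member UMIs, against 95.4% in other protein-coding genes. Retained introns held 0.522% against 3.02%, and nonsense-mediated decay transcripts 0.176% against 0.449%. Only 20 to 27 member genes had at least 2 transcripts to test in a comparison, so the tests of transcript shares cover a minority of the family.

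Rpl22l1 had a called transcript in 4 of the 5 comparisons. Its leading transcript Rpl22l1-206 held 62.8% of its UMIs. The share of Rpl22l1-204, the transcript with the early stop codon shown above, was 3.09% and 10.6% in alpha cells (15 of 486 and 191 of 1803 UMIs) and 1.36% and 2.12% in beta cells (20 of 1470 and 60 of 2834). Both alpha values were above both beta values, and the share was called higher in alpha cells (mean difference 5.10 percentage points, adjusted p = 6.20e-06, edgeR's diffSpliceDGE), where 0.445% of all transcripts tested were called. PP cells had 2.70% and 20.9% (adjusted p = 3.79e-09, where 0.332% were called), and delta cells 1.89% and 5.00%, with 0 of 53 member transcripts called by edgeR, where 0.388% of all were, and 3 with an unadjusted p under 0.05. In beta cells the exact 95% intervals were 0.833% to 2.09% and 1.62% to 2.72%, and in PP cells 1.09% to 5.49% and 17.4% to 24.7%, for counting error only. The PP share of replicate 2 was thus several times that of replicate 1.

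The non-endocrine types had few UMIs of Rpl22l1, in replicate 1 under the 50 set for naming a transcript, and were named after their values had been seen, because Rpl22l1-204 was the 1 member transcript called of 55 in the endothelial class. The share of Rpl22l1-204 there was 15.4% and 32.6% (6 of 39 and 105 of 322 UMIs), against 2.26% and 9.65% in the endocrine mean (adjusted p = 3.21e-13, where 0.477% were called). Without the duct-marker cluster it was 3 of 25 and 16 of 33 UMIs. Stellate cells had 4.17% and 37.7% (1 of 24 and 23 of 61 UMIs, adjusted p = 2.73e-04, where 0.245% were called). The share was higher in replicate 2 in all 6 types tested, and its difference between types was larger there as well. With the libraries not entered as a term, Rpl22l1-204 was called neither in the comparisons with beta cells nor in the endothelial class. The retained-intron transcript Rpl22l1-208 went the other way between libraries, with 13.2% and 2.61% in alpha cells and 2.52% and 1.69% in beta cells.

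**Figure D5:**
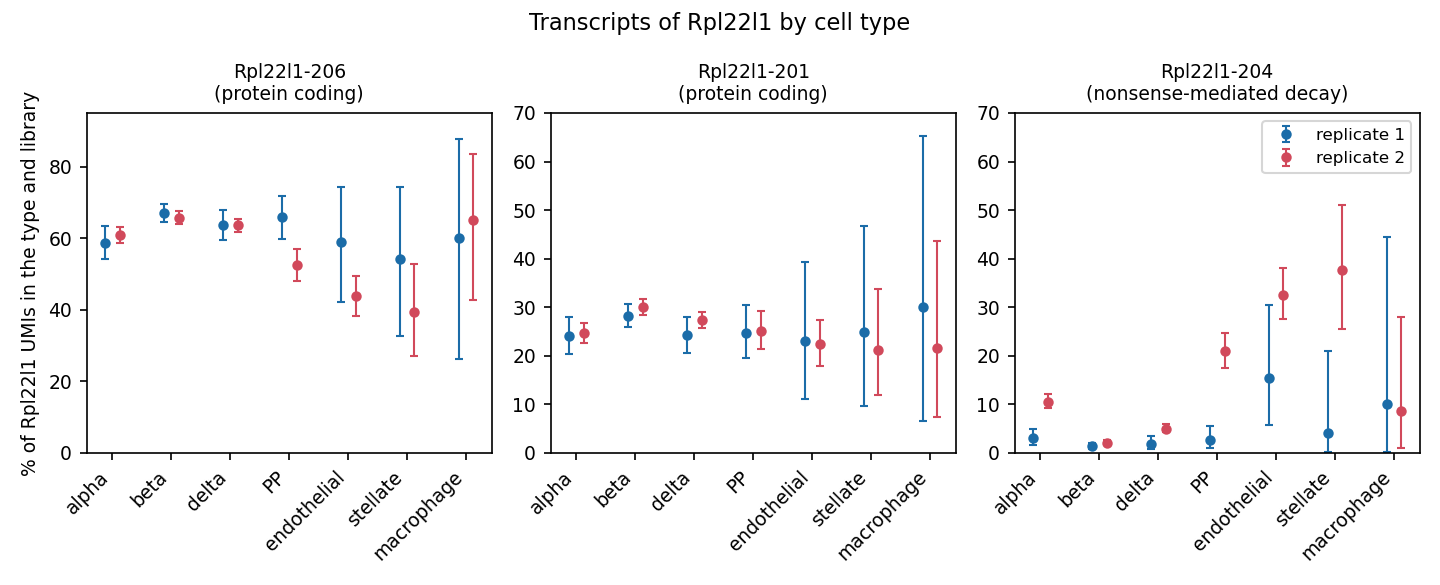
Share of 3 Rpl22l1 transcripts among the UMIs of the gene, in percent, by cell type and library; bars are exact 95% binomial intervals, which cover counting error only, and the vertical axis of the left panel is longer. Rpl22l1-204 is lowest in beta cells, at 1.36% and 2.12%, and above 20% in replicate 2 of PP, endothelial and stellate cells, whereas Rpl22l1-201 stays between 21.3% and 30.1% in the 6 types tested.

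Other changes of transcripts were seen in 3 genes. Rpl31, a large-subunit protein at the exit tunnel on chromosome 1 (39367842 to 39371911), has coding transcripts that differ at both ends. Rpl31-201 starts at base 39367842, upstream of Rpl31-202 at 39367929, and has a last exon of 610 bases where Rpl31-202 has 63. Rpl31-201 held 47.5% and 33.5% of Rpl31 UMIs in alpha cells (61 and 167 UMIs) and 17.1% and 15.4% in beta cells (292 and 469). The alpha values were above the beta values in both libraries (adjusted p = 0.0456 for the transcript and 0.0563 for the gene as a whole). Rpl31-202, the leading transcript, was at 27.9% and 39.5% in alpha and 43.8% and 56.9% in beta cells. The gene itself was among those that did not rise in alpha cells.

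In stellate cells Rpl41-207, a retained-intron transcript of the gene for the shortest ribosomal protein, held 14 of 79 and 21 of 175 UMIs, against 6.74% and 3.63% in the endocrine mean (adjusted p = 0.00140). Its leading transcript Rpl41-201 was at 58.2% and 60.6%, below every endocrine value. Rpl7a-203, which lacks a coding sequence in the annotation, held 7.11% and 9.73% of Rpl7a UMIs, against 2.15% and 1.77% (adjusted p = 8.50e-04). Both are transcripts annotated as not protein coding, and in both cases the stellate values lay above the endocrine means in each library.

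Genes that work with the ribosomal proteins were counted in the same fits. Among the genes for further ribosome parts, Rack1, a scaffold on the small subunit, rose in alpha cells (0.97 ± 0.27, adjusted p = 0.00946). Of 20 genes for translation factors and other mRNAs known to carry a TOP motif, 4 rose and 1 fell in alpha cells, with a median of 0.36, where 9.13% of all genes tested rose and 9.91% fell. Eef1b2, an elongation factor subunit, rose by 0.84, and Gas5, a noncoding RNA with a TOP start, by 0.92. Eif3m fell by 0.73 in alpha and by 0.78 in delta cells. In PP cells 4 rose and 0 fell, with a median of 0.53, where 8.89% of all genes rose and 8.43% fell, among them Npm1 (1.05) and Gas5 (1.10).

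Of 28 genes of ribosome biogenesis, 0 rose and 1 fell in alpha cells (Nop10, -0.98 ± 0.22), where 9.13% of all genes tested rose and 9.91% fell. Their median was 0.35. Of 78 mitochondrial ribosomal protein genes 0 rose and 5 fell in alpha cells, with a median of -0.18, against 0.02 over all genes. Of all genes tested 9.13% rose and 9.91% fell, so the called falls do not set this list apart. Called rises were fewer than over all genes, a difference that was not tested. The largest of the called falls by adjusted p was Mrps14 (-1.14, adjusted p = 4.20e-04). Of 16 genes that control translation 1 rose and 1 fell in alpha cells, where the same 9.13% and 9.91% apply, so these counts do not set the list apart. Eif4ebp1, the inhibitor of cap-dependent initiation that mTOR switches off, fell by 1.11 in alpha, 1.57 in delta and 1.25 in PP cells against the same beta cells, with 44.5 and 21.4 CPM in alpha, 32.7 and 28.6 in delta, 25.2 and 36.0 in PP and 91.3 and 96.0 in beta cells. Larp1, the TOP-binding repressor, fell by 2.15 in PP cells (13.1 and 6.54 CPM against 60.6 and 62.7). Its PP values rest on few UMIs, in sums of 914467 and 611417, and it was not tested by transcript UMIs. Of the 16 genes, 1 rose and 4 fell in PP cells, where 8.89% of all genes tested rose and 8.43% fell. Transcript UMIs called 1 higher and 2 lower of the 13 tested.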

How the data were processed

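Single-cell cDNA of mouse islets was measured in 2 libraries of the modified 5′ protocol. The authors deposited raw UMI counts per gene and per transcript for each cell barcode, and a table with the cluster and cell type of each kept cell. The submitters' processing notes name mm10 and Seurat. The aligner, the counter and whether strand was used are not given in the sources used here, so reads of overlapping genes, pseudogenes and paralogs may have been split in ways that cannot be seen. Transcripts were matched to GENCODE M21 (GRCm38), and promoter sequences are from RefSeq (GRCm38.p6). No protein sequences were used here.

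Counts of kept cells were summed per library and per cell type of the authors' gene clusters, where 6 types reached 20 cells in both libraries, giving 12 sums. No doublet caller was run here, and the labels do not say whether doublets had been removed, so cells of mixed identity may be among the types. Genes were filtered with filterByExpr, scaled by TMM and tested in edgeR 4.0.16 (R 4.3.3) by the quasi-likelihood test with cell type and library as terms (5 residual degrees of freedom), with Benjamini-Hochberg adjustment over all genes and a threshold of 0.05. Transcript shares were tested with diffSpliceDGE for transcripts with at least 10 UMIs and 5% of their gene. The same sums of transcript UMIs per gene were an alternative added after seeing the data, as were the tests without the duct-marker cluster. SE is the log2 fold change divided by the square root of F. The scripts were tested on simulated data for alpha minus beta. There 7.46% of gene changes of 1.5 times were called, 62.7% of those of 2 times and 95.5% of those of 4 times. Of transcripts raised 4 times, 59% were called. Among unchanged genes 0.0722% were called, and among transcripts of unchanged genes 0.0213%. A missing call therefore does not show that a small change is absent. Shares have exact Clopper-Pearson 95% intervals, which cover counting error only. Pseudogene copies were found with BLAST 2.17.0. Other alternatives were no TMM, RLE factors, TMM without the members, totals without hormone genes, no filter, DESeq2 1.42.0, no library term, other cell groupings, thinning and leaving out a library.

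The library enters as a block because each library gave every cell type from the same suspension. Deviations of a library were correlated between types (r from 0.09 to 0.47, median 0.18, over all genes in 15 pairs of types, and from 0.17 to 0.92, median 0.54, over the members).

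The members and the lists were chosen with earlier results of these data known. Genes were named by rule: the markers Rpl27a, Rpl13 and Rpl22l1, both genes of each paralog pair, up to 6 of the largest called rises and falls per comparison that had the same direction in each library, the 5 highest and 5 lowest levels, up to 8 called transcripts with at least 50 gene UMIs on each side, and up to 4 genes per other list. Others are named for their count, their disagreement between tables or for having no call, after their values were seen. Some further genes are not reported here.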

Additional observations from a re-analysis of the deposited data

How the results depend on the processing

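The main limits are 2 libraries, few non-endocrine cells, and gene and transcript tables that disagree for many members. The higher median in alpha cells had the same direction under every alternative run. Without the replicate block 3, 0, 1, 0 and 0 members were called in alpha, delta, PP, endothelial and stellate cells, and 0, 0, 0, 0 and 1 member transcripts. Rpl36al was then not called in endothelial (-1.19, adjusted p = 0.212) or stellate cells (-1.88, adjusted p = 0.124).

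Without TMM scaling 10 members were called in alpha (9 higher, 1 lower; median 0.32), 1 in PP (0.10), 23 in endothelial (0.40) and 5 in stellate cells (0.11), and 1 transcript in alpha cells. Restricted to clusters in which the type's own markers led, 58, 1, 27, 19 and 5 were called in alpha, delta, PP, endothelial (1 higher, 18 lower; median -0.42) and stellate cells, and 2 transcripts in endothelial cells. Without the duct-marker cluster the counts were 58 in alpha, 26 in PP, 22 in endothelial (median -0.44) and 10 in stellate cells. Rpl10a reversed in endothelial cells to -0.50 and -0.62 under these 2 settings. Thinned to equal totals, 10 were called in alpha, 0 in PP, 6 in endothelial and 4 in stellate cells (median 0.13). DESeq2 called 24 in PP and 5 in stellate cells. With every gene of at least 1 UMI, 7 were called in PP cells. Without the 6% of cells with the most UMIs, 4 were called in stellate cells. Transcript UMIs called 1 in PP (median 0.24) and 11 in stellate cells. Apart from transcript UMIs, the share of all genes called under these settings is not given here. The median of all genes moved with the setting. Without TMM scaling it was -0.39 in alpha, -0.42 in PP, 0.22 in endothelial and 0.02 in stellate cells. In endothelial cells it was -0.33 with own-marker clusters and -0.49 without the duct-marker cluster. The counts alone therefore do not set the members apart.

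With hormone UMIs left out, alpha cells had a share of 7.73% and PP cells of 7.02%, against 5.19% for beta and 5.28% for delta cells. In the transcript tables alpha cells had 10.0%, beta cells 8.57%, delta cells 7.86% and PP cells 8.32%, and it was 11.8% in endothelial cells, 9.29% in stellate cells and 13.1% in macrophages. The median per cell was 4.81% in stellate cells. Except where the setting's construction shows it, the cause was not tested.

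Leaving out a library, medians ranged from 0.59 to 0.84 in alpha, -0.14 to 0.14 in delta, 0.39 to 0.63 in PP, -0.19 to 0.23 in endothelial and -0.38 to -0.09 in stellate cells. Shares ranged from 4.58% to 6.76% in alpha, 4.17% to 4.92% in beta, 3.54% to 4.95% in delta, 4.29% to 5.68% in PP, 4.55% to 8.39% in endothelial and 5.01% to 5.34% in stellate cells, and 6.72% to 8.78% in macrophages. With 1 library no residual degrees of freedom are left, so calls were not tested.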

Other observations

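Of the 16 genes of translation control, 3 rose and 1 fell in the endothelial class, where 32.9% of all genes tested were called, and 1 rose and 0 fell in stellate cells, where 10.2% rose, so these counts do not set the list apart. Myc, a transcription factor that drives ribosome production, had a log2 fold change of 3.40 in stellate cells (53.8 and 101 CPM). In the endothelial class Myc was at 2.66 (4.81 and 82.1 CPM), and replicate 1 gave -0.37. Transcript UMIs called Myc in neither comparison (adjusted p = 0.0846 and 0.103, edgeR). The kinase gene Rps6ka1 was at 2.82 in the endothelial class (14.4 and 22.6 CPM). Tsc1, which restrains mTOR, fell by 1.88 there (24.1 and 2.83 CPM). Transcript UMIs did not call Tsc1 (adjusted p = 0.148, edgeR), and Rps6ka1 was not tested by them. These values rest on few UMIs, and the endothelial ones include the duct-marker cluster. Of the mitochondrial ribosomal protein genes, 4 of 78 rose and 7 fell in the endothelial class, where 32.9% of all genes were called, and 2 rose and 3 fell in stellate cells, where 10.2% rose and 6.47% fell. Among the biogenesis genes Nhp2 rose by 1.17 in the endothelial class.

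Macrophages, with 62 and 7 cells and no test, had the highest mean share of ribosomal protein UMIs, 7.75% ± 1.46 (SD, n = 2). Their values of the proliferation markers Mki67 (73.2 and 80.7 CPM) and Top2a (128 and 194 CPM) are given beside it, and the part of cycling cells in the share was not tested.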
